A study of Mus musculus with 6 samples.

Results

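The genes described here fold, import and quality-control proteins in the endoplasmic reticulum (ER), or belong to the stress response that the ER starts. They are a fixed list of 39 genes, taken by symbol from a count table of 23565 genes. All 39 were found, and all 39 passed the filter on low counts that left 12439 genes for testing. The series compared RNA from cells sorted from mouse small-intestinal crypts by fluorescence. One group, called Hopx-CreER here, held tdTomato-positive cells of HopXCreER::Rosa26LSL-tdTomato mice. The other, called Lgr5-CreER, held cells positive for both eGFP and tdTomato from Lgr5eGFP-IRES-CreER::Rosa26LSL-tdTomato mice. Mice of both genotypes received 1 mg tamoxifen, which lets the CreER recombinase remove the stop cassette (LSL) before tdTomato, and were harvested 16 hours later, with 3 mice per genotype and their ages not given in the sources used here. Both alleles mark cells by the activity of a driver gene: Hopx is used as a marker of slowly cycling crypt cells above the base, and Lgr5 of the stem cells of the crypt base. Hopx-CreER cells also lacked the eGFP allele and its gate, so driver, allele and gate cannot be told apart. Each group had 3 libraries, with 10839306 to 14570555 counts each, numbered here only to name them. The count columns of Lgr5-CreER libraries 2 and 3 carry 1 shared number, so whether they came from separate mice could not be checked, and p-values measure only the spread between these libraries. Hopx-CreER library 3 stood apart from libraries 1 and 2 of its group for many genes, along the GC content of their transcripts, and results that rest on it are given with and without it. The count column of this library is the only one with a further tag after the group name, and the meaning of the tag was not established here.

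Proteins that are secreted or inserted in membranes enter the ER through the Sec61 channel, lose their signal peptide to the signal peptidase, and fold with help from Hsp70 and Hsp90 chaperones, sugar-binding chaperones and disulfide isomerases. Proteins that fail are sent back to the cytosol and degraded (ER-associated degradation, ERAD). When unfolded protein builds up, the sensors IRE1, PERK and ATF6 start the unfolded protein response: ATF6 and XBP1 raise chaperone genes, and PERK slows translation while ATF4 is made and turns on its own targets. Paneth and goblet cells, the secretory cells of the crypt, are known for an extensive ER.

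The DNA elements of this response can be read in the promoters of the listed genes, and the sequences shown here are those of the chaperone and ATF4-target genes that the results compare. RefSeq windows (GRCm38.p6, 250 bases before to 50 after each start site) were found for 33 of the 39 genes, and for 6 of the 8 that later passed the test. The ER stress element, CCAAT and CCACG with 9 bases of any kind between them, on either strand, stood in the windows of 8 listed genes, beside 0.137% of all 27025 genes with a window. Those 8 were Hspa5, Hsp90b1, Calr, Canx, Pdia6, Dnajc3, Creld2 and Syvn1, and Hsp90b1 held it 2 times. Each stretch below runs 5′ to 3′ on the strand of its gene, with the fixed letters of the motif in capitals (Calr and Creld2 hold it on the opposite strand). They lie at chr2:34772000-34772060 (Hspa5, + strand), chr8:84847051-84847111 (Calr, - strand), chr11:50325773-50325833 (Canx, - strand), chr12:17266469-17266529 (Pdia6, + strand), chr14:118937807-118937867 (Dnajc3, + strand), chr15:88819501-88819561 (Creld2, + strand) and chr19:6046506-6046566 (Syvn1, + strand).
Hspa5: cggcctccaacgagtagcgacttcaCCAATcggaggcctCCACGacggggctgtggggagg
Calr: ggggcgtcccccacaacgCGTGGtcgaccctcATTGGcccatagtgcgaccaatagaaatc
Canx: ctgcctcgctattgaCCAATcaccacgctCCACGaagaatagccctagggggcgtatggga
Pdia6: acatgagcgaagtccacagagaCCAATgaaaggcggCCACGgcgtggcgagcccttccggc
Dnajc3: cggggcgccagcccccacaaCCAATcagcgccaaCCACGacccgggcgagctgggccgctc
Creld2: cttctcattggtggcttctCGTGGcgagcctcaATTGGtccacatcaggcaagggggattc
Syvn1: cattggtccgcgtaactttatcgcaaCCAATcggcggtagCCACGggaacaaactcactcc

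In Hsp90b1 the 2 matches face opposite ways within chr10:86705524-86705674 (- strand), shown whole because of that pairing. A related element, ATTGG and CCACG with 1 base of any kind between them, on either strand, was found in Dnajb11 and Herpud1 (0.0444% of genes), and TGACGTGG in Txndc5 (0.714% of genes). The amino acid response element TGATGNAA, to which ATF4 is known to bind, is short and less rare: it was found in 4.51% of genes and in the listed genes Asns, Chac1, Herpud1, Trib3 and Txndc5. Herpud1 (chr8:94386304-94386394, + strand) held the related element on its own strand and the amino acid response element on the opposite one. Chac1 (chr2:119351022-119351082, + strand) held the latter on the opposite strand and Asns (chr6:7693214-7693269, - strand) on its own.
Hsp90b1: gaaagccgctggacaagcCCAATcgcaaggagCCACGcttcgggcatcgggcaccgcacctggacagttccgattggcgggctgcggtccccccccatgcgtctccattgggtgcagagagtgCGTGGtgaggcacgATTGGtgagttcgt
Herpud1: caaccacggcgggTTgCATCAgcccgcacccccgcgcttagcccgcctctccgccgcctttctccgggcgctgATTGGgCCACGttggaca
Chac1: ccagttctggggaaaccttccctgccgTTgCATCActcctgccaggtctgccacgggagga
Asns: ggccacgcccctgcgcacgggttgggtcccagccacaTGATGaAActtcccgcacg

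Higher in Hopx-CreER cells were 8 of the 39 genes: Ppp1r15a, Chac1, Ddit3 and Atf4 of the stress factors, the sensor Atf6, the disulfide isomerase P4hb, the ERAD factor Edem1 and the secreted ER protein Manf. By the edgeR quasi-likelihood test (adjusted p under 0.05 over all tested genes) 0 of the 39 were lower, and 31 did not pass, with adjusted p from 0.0527 to 0.978. At an unadjusted p under 0.05 the counts were 16 higher and 0 lower (16.3% and 11.1% of all tested genes). DESeq2 and limma-voom each called 9 higher and 0 lower (11.3% and 5.58%, and 9.08% and 3.3%, of all tested genes). The 8 make 20.5% of the list, where 9.45% of all tested genes were higher and 3.3% lower in that group. The median log2 fold change was 0.20 over the 39 genes and -0.03 over all tested genes. For 19 of the 39, all 3 Hopx-CreER libraries lay above all 3 Lgr5-CreER libraries, which held for 18.8% of tested genes, and for 0 of the 39 did all Lgr5-CreER libraries lie above, against 16.2% of tested genes. Levels, given in CPM (counts scaled to library size with TMM factors), summed over the list to 13609, 13533 and 12381 in Hopx-CreER libraries 1, 2 and 3 and to 10949.8, 10883 and 11550.2 in the Lgr5-CreER libraries. P4hb, at means of 2598 (Hopx-CreER) and 1535 CPM (Lgr5-CreER), weighs heavily on this sum. Summed by role, Hopx-CreER libraries 1 and 2 lay above every Lgr5-CreER library each time. Hopx-CreER library 3 did so only for disulfide isomerases, stress factors and targets, and translocon genes. It lay below every Lgr5-CreER library for lectin chaperones, ERAD genes and Hsp70 and Hsp90 chaperones with partners (1482 against 1708 to 1773 CPM). In bulk RNA from sorted cells, fewer cells of a type and less RNA per cell cannot be told apart. The count of 8 ranged from 3 to 10 when 1 library was left out, and fell to 3 without Lgr5-CreER library 2 or without Lgr5-CreER library 3. Without Hopx-CreER library 3 it was 10, with 0 lower (9.89% and 4.6% of all tested genes), and with library totals in place of TMM factors 5, with 0 lower (7.54% and 5.86%). P4hb, Chac1 and Ppp1r15a stayed past the threshold in each of the 16 alternative analyses, Atf4 in 13, Ddit3 in 10, Atf6 and Edem1 in 9 and Manf in 5. Library totals alone ended the edgeR calls of Atf6, Edem1 and Manf (adjusted p = 0.0562, 0.0847 and 0.103), and summing the 2 Lgr5-CreER columns with a common number ended those of Atf4, Ddit3, Atf6, Edem1 and Manf (0.0653 to 0.123).

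**Figure D1:**
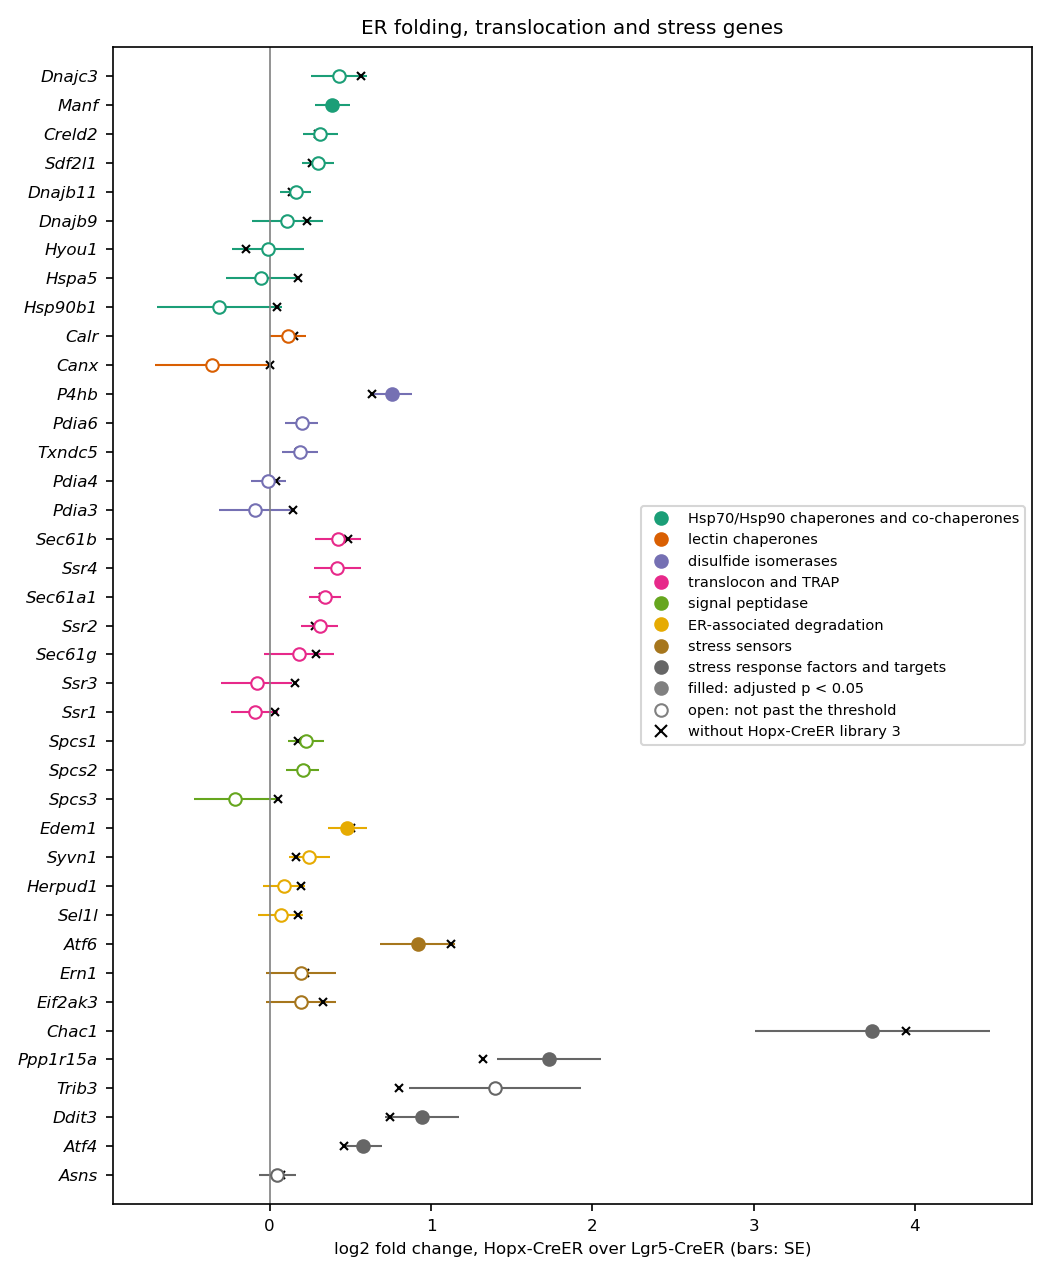
Log2 fold change of each of the 39 genes, Hopx-CreER over Lgr5-CreER (x axis; bars are standard errors), grouped by role in colour, with filled points past the edgeR threshold and crosses for the value without Hopx-CreER library 3. The 8 filled points all lie right of 0, 4 of them among the 6 stress factors and targets.

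Of the 6 stress factors and targets 4 rose (9.45% of all tested genes). For 5 of the 6 all Hopx-CreER libraries lay above all Lgr5-CreER libraries (18.8% of all tested genes). Their median log2 fold change was 1.17, and 0.77 without Hopx-CreER library 3. Ppp1r15a (ENSMUSG00000040435.12, chr7:45522916-45526268, GRCm38) encodes GADD34, which leads a phosphatase to eIF2α and so restores translation. Its level was 95.6, 85.1 and 176 CPM in Hopx-CreER libraries 1, 2 and 3, and 47.6, 36.6 and 23.2 CPM in Lgr5-CreER libraries 1, 2 and 3. Every Hopx-CreER library lay above every Lgr5-CreER library, with library 3 the highest (values per library are in this order throughout). The means were 119 ± 49.9 and 35.8 ± 12.2 CPM (SD, n = 3 each), a log2 fold change of 1.73 ± 0.32 (SE) and 3.32-fold higher in Hopx-CreER cells (edgeR adjusted p = 0.00869). Without Hopx-CreER library 3 the log2 fold change was 1.32.

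Chac1 (ENSMUSG00000027313.3, chr2:119351229-119354381) encodes an enzyme that degrades glutathione and is a known target of ATF4, and its promoter stretch is shown above. It was rare: 56, 71 and 31 counts in the Hopx-CreER libraries and 8, 5 and 0 in the Lgr5-CreER libraries, that is 4.22, 6.0 and 2.88 CPM against 0.535, 0.432 and 0 CPM. The groups were clearly apart, although a count of 0 in Lgr5-CreER library 3 allows a level of up to 0.206 CPM (3 counts, for counting error only). The fitted log2 fold change was 3.74 ± 0.73 (edgeR adjusted p = 0.0107) and depends on the prior count used for so few reads.

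Atf4 (ENSMUSG00000042406.7, chr15:80255184-80257541), the transcription factor made when PERK or another eIF2α kinase is active, measured 253, 252 and 308 CPM in Hopx-CreER libraries 1, 2 and 3 against 195, 167 and 182 CPM in Lgr5-CreER libraries 1, 2 and 3. Its groups did not overlap. The means of 271 ± 32.2 and 181 ± 13.8 CPM differed 1.49-fold (log2 0.58 ± 0.12, edgeR adjusted p = 0.0137). ATF4 is controlled largely at translation, which RNA levels do not show. Ddit3 (ENSMUSG00000025408.15, chr10:127290774-127296288), which encodes the factor CHOP that is linked to cell death after lasting stress, measured 23.1, 19.4 and 30.1 CPM against 13.7, 10.5 and 13.4 CPM. Again no library of one group reached the other group, and the means of 24.2 ± 5.47 and 12.6 ± 1.76 CPM differed 1.92-fold (log2 0.94 ± 0.23, edgeR adjusted p = 0.0282). Ddit3 shares 68 exon bases with Mars on the opposite strand. It shares 105 with a further annotated gene of the same name on its own strand, which the count table does not hold. By edgeR, Atf4 lost its call without Lgr5-CreER library 2 (adjusted p = 0.0741) or 3 (0.061), and Ddit3 lost it without any single Lgr5-CreER library (0.0702, 0.124 and 0.0868) or without Hopx-CreER library 1 (0.0515).

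Trib3 and Asns, 2 further ATF4 targets, did not pass. Trib3, a pseudokinase that restrains stress signalling, had 17, 24 and 45 counts in the Hopx-CreER libraries and 18, 7 and 14 in the Lgr5-CreER libraries, with every Hopx-CreER CPM above every Lgr5-CreER CPM but a wide error (log2 1.40 ± 0.53, edgeR adjusted p = 0.125). Its log2 fold change was 0.80 without Hopx-CreER library 3. Asns, asparagine synthetase, measured 236, 274 and 235 CPM against 263, 219 and 239.8 CPM, fully overlapping, and its log2 fold change of 0.05 had a 95% interval of -0.21 to 0.31. The 3 of these 6 genes with an amino acid response element in the window (Chac1, Trib3 and Asns) ran from a log2 fold change of 0.05 to one of 3.74.

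**Figure D2:**
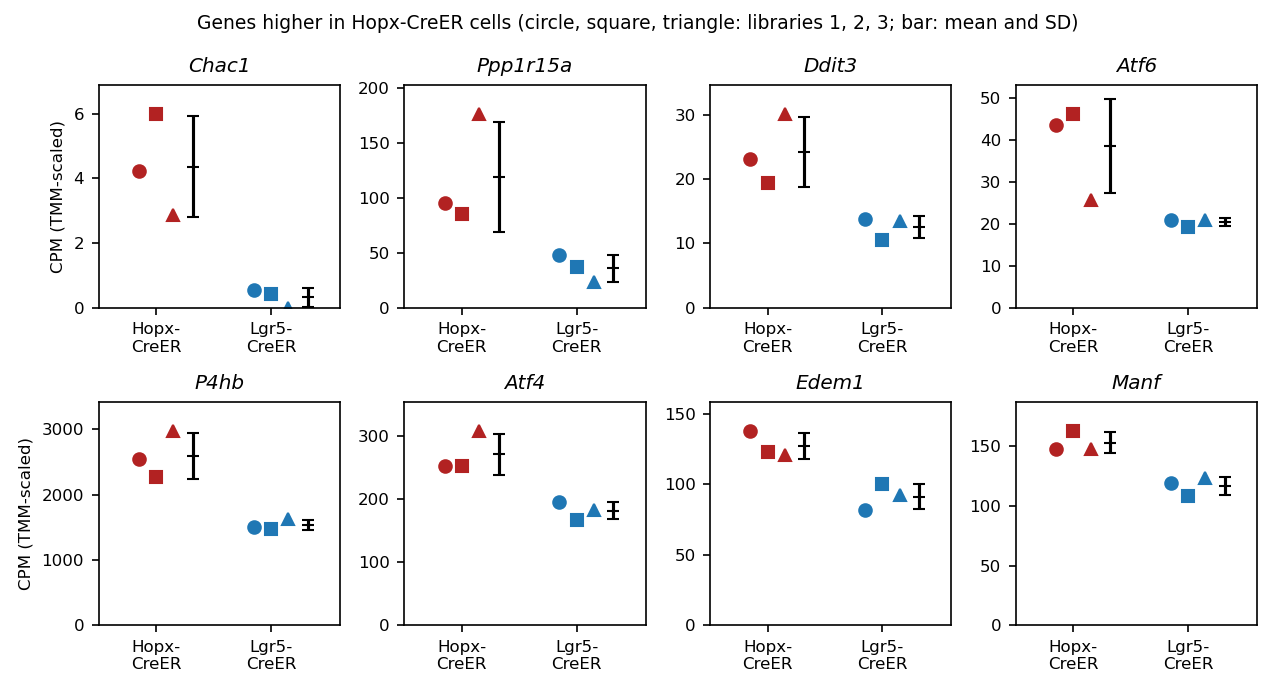
TMM-scaled CPM (y axis, from 0) per library for the 8 genes higher in Hopx-CreER cells, with circle, square and triangle for libraries 1, 2 and 3 of a group and the bar for the mean and SD. In every panel the 3 Hopx-CreER points lie above the 3 Lgr5-CreER points, and Hopx-CreER library 3 is the highest for Ppp1r15a, Atf4, Ddit3 and P4hb and the lowest of its group for Atf6, Chac1 and Edem1.

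Immediate early genes, which cells raise soon after a stimulus, were mostly higher in Hopx-CreER cells too. Of 14 such genes (Fos, Jun, Egr1 and others, a list added after the data were seen), 10 passed as higher, beside 9.45% of all tested genes. For 14 of the 14, all Hopx-CreER libraries lay above all Lgr5-CreER libraries, which held for 18.8% of tested genes. The summed level of the 14 genes was 5817, 4581 and 6932 CPM in Hopx-CreER libraries 1, 2 and 3 against 3088, 1617 and 1622 CPM in Lgr5-CreER libraries 1, 2 and 3. The sum was highest in Hopx-CreER library 3, as were Ppp1r15a, Atf4, Ddit3 and Trib3. Chac1 was the lowest of its group there, and Asns was nearly level between libraries 3 and 1 (235 and 236 CPM). The rank in library 3 is not particular to these genes: P4hb (2979 CPM) and the Paneth marker sum (32548 CPM) were highest there too. That library also stood apart for many genes along the GC content of their transcripts. Markers of secretory cells moved too: the summed level of 9 Paneth markers was 14954 to 32548 CPM against 1663 to 3263 CPM, with 8 of 9 higher, that of 8 goblet markers 6904 to 10456 against 2010 to 2676 CPM, with 7 of 8 higher, and that of 9 enteroendocrine markers 2837 to 5914 against 167 to 293 CPM, with 9 of 9 higher. The move was not limited to these lists: 7 of 8 enterocyte markers and 4 of 5 tested tuft markers were higher too. Beside these marker counts, 9.45% of all tested genes were higher. The part of cell types and of immediate early activation in the results on the ER genes was not tested.

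Of the 3 sensors, Atf6 passed the test as higher, beside 9.45% of all tested genes. Atf6 (ENSMUSG00000026663.6, chr1:170704674-170867771) encodes the sensor that is cut in the Golgi and then enters the nucleus. It measured 43.7, 46.3 and 25.7 CPM in Hopx-CreER libraries 1, 2 and 3 against 20.9, 19.3 and 21 CPM in Lgr5-CreER libraries 1, 2 and 3. All 3 Hopx-CreER values were above the Lgr5-CreER values, but library 3 came close to them. The means were 38.6 ± 11.2 and 20.4 ± 0.938 CPM, 1.89-fold apart (log2 0.92 ± 0.23, edgeR adjusted p = 0.0308). The edgeR call held without Hopx-CreER library 3, at log2 1.12 and adjusted p = 0.000491, and was lost when any of the other 5 libraries was left out (adjusted p 0.0689 to 0.12). Ern1, which encodes IRE1α, and Eif2ak3, which encodes PERK, had log2 fold changes of 0.20 ± 0.22 and 0.19 ± 0.22 and did not pass (edgeR adjusted p = 0.597 and 0.603). Their libraries overlapped between groups, from 19.3 to 22.4 against 14.2 to 21.9 CPM for Ern1 and from 21.2 to 33.8 against 20.0 to 27.0 CPM for Eif2ak3.

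Among the 9 Hsp70 and Hsp90 chaperones and their partners 1 rose (Manf), a share of 11.1% that is close to the 9.45% of all tested genes. Their median log2 fold change was 0.16. Hspa5 (ENSMUSG00000026864.13, chr2:34771970-34777547) encodes BiP, the main Hsp70 of the ER, whose abundance is a common readout of the unfolded protein response. It measured 1135, 1026 and 572 CPM in Hopx-CreER libraries 1, 2 and 3 against 892, 979.5 and 969 CPM in Lgr5-CreER libraries 1, 2 and 3. Libraries 1 and 2 of the Hopx-CreER group were above all Lgr5-CreER libraries, and library 3 was far below them. The log2 fold change was -0.06 with a 95% interval of -0.55 to 0.44 (edgeR adjusted p = 0.889), and 0.18 without library 3 (edgeR adjusted p = 0.306). Hsp90b1, which encodes the ER Hsp90 GRP94, was also lowest in library 3, with 45.0, 64.6 and 16.9 CPM against 41.2, 60.3 and 55.7 CPM. Its log2 fold change was -0.31 ± 0.39, or 0.05 without library 3. Hsp90b1 shares 415 exon bases with the opposite-strand gene 1810014B01Rik, and over those bases these libraries cannot separate reads by strand. That gene was itself counted at 5.38 to 9.91 CPM.

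Manf (ENSMUSG00000032575.16, chr9:106838312-106891979) encodes a small ER protein that binds BiP and is secreted under stress. It measured 148, 163 and 148 CPM against 119, 108 and 124 CPM, with a narrow spread and no overlap. The difference was 1.31-fold (means 153 ± 8.69 and 117 ± 7.81 CPM, log2 0.39 ± 0.11, edgeR adjusted p = 0.0455). This call held in the fewest alternatives of the 8: by edgeR it held without Hopx-CreER library 3 (adjusted p = 0.0332) and was lost without any of the other 5 libraries (0.0581 to 0.186). Manf also shares 146 exon bases with Dcaf1 on the opposite strand. Creld2 and Sdf2l1, small ER proteins that respond to stress in the same way, gave log2 fold changes of 0.31 ± 0.11 and 0.30 ± 0.10 without passing (edgeR adjusted p = 0.0974 and 0.0808). Their Hopx-CreER libraries stood at 178 to 211 and 159.5 to 173 CPM, above the Lgr5-CreER ranges of 145 to 165 and 132 to 139 CPM.

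The 3 J-domain partners of BiP did not pass. Dnajc3, which encodes p58IPK, measured 68.9, 70.7 and 49.2 CPM against 41.4, 52.1 and 46.7 CPM. Library 3 of the Hopx-CreER group lay inside the Lgr5-CreER range, and edgeR gave an adjusted p of 0.143 with it and 0.0186 without it (log2 0.43 and 0.57). Dnajb11 measured 215.8, 201.5 and 212.3 CPM against 180.2, 187.1 and 195.8 CPM, a small shift without overlap (log2 0.16 ± 0.10, edgeR adjusted p = 0.319). Dnajb9 (log2 0.11 ± 0.22) and the exchange factor Hyou1 (log2 -0.01 ± 0.22) overlapped between groups.

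The 8 genes with the ER stress element in the windows shown above had log2 fold changes on both sides of 0. By edgeR 0 of the 8 passed (2 at an unadjusted p under 0.05, 0 by DESeq2 and 0 by limma-voom). Of all tested genes, 9.45% passed as higher and 3.3% as lower, and 16.3% and 11.1% at the unadjusted p. The log2 fold changes of the 8 ran from -0.36 (Canx) to 0.43 (Dnajc3) with a median of 0.15. For 2 of the 8 all Hopx-CreER libraries were above all Lgr5-CreER libraries (18.8% of all tested genes). The median was 0.17 without Hopx-CreER library 3.

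Of the 2 lectin chaperones, which hold newly made glycoproteins in the ER, 0 passed in edgeR, with 0 at an unadjusted p under 0.05 and 0 called by DESeq2 or limma-voom. Of all tested genes, 9.45% were higher by edgeR and 16.3% at its unadjusted p, 11.3% by DESeq2 and 9.08% by limma-voom. Calr, calreticulin, measured 1059, 1089.9 and 955 CPM against 1041, 868 and 963 CPM. The groups overlapped, and the 95% interval of the log2 fold change, -0.14 to 0.36, leaves room for a small shift either way (estimate 0.11, edgeR adjusted p = 0.557). Canx, its membrane-bound relative calnexin, measured 313, 242 and 87.5 CPM against 268, 286 and 269.6 CPM. Its log2 fold change was -0.36 ± 0.36 with the low library 3 and 0.00 without it.

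Of the 5 disulfide isomerases 1 rose, beside 9.45% of all tested genes. P4hb (ENSMUSG00000025130.11, chr11:120560298-120573253) encodes PDI, the classical enzyme that forms and reshuffles disulfide bonds. It measured 2540.4, 2276 and 2979 CPM in Hopx-CreER libraries 1, 2 and 3 against 1503, 1471 and 1630.1 CPM in Lgr5-CreER libraries 1, 2 and 3. The lowest Hopx-CreER library lay well above the highest Lgr5-CreER library. The means of 2598 ± 355 and 1535 ± 84.1 CPM differed 1.69-fold (log2 0.76 ± 0.13, edgeR adjusted p = 0.00527), and the adjusted p stayed at or under 0.0326 in all 16 alternatives. Per kilobase of its longest coding transcript, P4hb had the highest level of the 39 genes in both groups, 908 and 536 CPM per kilobase, ahead of Calr at 474 and 438.

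The other 4 isomerases did not pass. Pdia6 measured 841, 843 and 825 CPM against 672, 740 and 776 CPM, and Txndc5 measured 901, 1035 and 947 CPM against 764, 888 and 879 CPM. Neither gene overlapped between groups, yet neither passed (log2 0.20 ± 0.10 and 0.19 ± 0.11, edgeR adjusted p = 0.242 and 0.308). Pdia4 overlapped fully at 472 to 540.2 against 479 to 553 CPM. Pdia3, which works with the lectin chaperones, measured 1139.9, 1103 and 593 CPM against 912, 989 and 1119.96 CPM, with library 3 alone below the Lgr5-CreER range (log2 -0.09 ± 0.22).

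The 7 translocon genes had a median log2 fold change of 0.31, and edgeR called 0 of them. At an unadjusted p under 0.05, 4 were higher, and DESeq2 and limma-voom each called 1 as higher. Of all tested genes, 9.45% were higher by edgeR and 16.3% at its unadjusted p, 11.3% by DESeq2 and 9.08% by limma-voom. For 4 of the 7 (Sec61a1, Sec61b, Ssr2 and Ssr4) the Hopx-CreER libraries were all higher, beside 18.8% of all tested genes. Sec61a1, the pore subunit of the channel, measured 824, 749 and 788 CPM against 655, 599.8 and 607 CPM. Among the 39 genes it came nearest to the threshold of those that missed it (log2 0.34 ± 0.10, edgeR adjusted p = 0.0527) and passed with DESeq2 (adjusted p = 0.025) and limma-voom (0.0344). Its exons share 549 bases with Gm44170. Sec61b, a small subunit, measured 127, 175 and 127 CPM against 111, 105 and 104 CPM (log2 0.43 ± 0.14, edgeR adjusted p = 0.087), and Sec61g, the other small subunit, overlapped (log2 0.18 ± 0.22). The threshold was passed by Sec61b without Hopx-CreER library 3 (edgeR adjusted p = 0.0358) and by Ssr4 without Hopx-CreER library 1 (0.0324).

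The TRAP complex, 4 Ssr proteins that sit beside the channel, held genes on both sides of 0. Ssr2 measured 531, 572 and 573 CPM against 434, 404 and 513 CPM, and Ssr4 169.7, 245 and 201 CPM against 164, 139 and 158 CPM. Both were without overlap and did not pass (log2 0.31 ± 0.12 and 0.42 ± 0.15, edgeR adjusted p = 0.118 and 0.0952). Ssr1 and Ssr3 lay close to 0 (log2 -0.09 ± 0.14 and -0.08 ± 0.22), with Hopx-CreER library 3 the lowest of the 6 libraries for both.

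The 3 signal peptidase genes did not pass, with 0 at an unadjusted p under 0.05 in edgeR and 0 called by DESeq2 or limma-voom. Of all tested genes, 9.45% were higher by edgeR and 16.3% at its unadjusted p, 11.3% by DESeq2 and 9.08% by limma-voom. Spcs2, the most abundant of the 3, measured 359.6, 399.9 and 359 CPM against 315, 309 and 346 CPM, without overlap but with a small difference (log2 0.21 ± 0.10, edgeR adjusted p = 0.23). Spcs1 gave log2 0.23 ± 0.11. Spcs3 measured 125, 122 and 56.8 CPM against 109.8, 124 and 119 CPM, again with library 3 alone far below the rest, and its log2 fold change was -0.22 ± 0.25 with that library and 0.05 without it.

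Of the 4 ERAD genes, Edem1 passed as higher, beside 9.45% of all tested genes. Edem1 (ENSMUSG00000030104.9, chr6:108828641-108859356) encodes a protein that picks misfolded glycoproteins for disposal. It measured 138, 123 and 121 CPM against 81.6, 99.8 and 92.0 CPM, without overlap and with like spreads in the 2 groups. The means of 127 ± 9.21 and 91.1 ± 9.12 CPM were 1.40-fold apart (log2 0.48 ± 0.12, edgeR adjusted p = 0.0303). By edgeR the call held without Hopx-CreER library 3 (adjusted p = 0.0226) and was lost without any of the other 5 libraries (0.0645 to 0.116). Herpud1, an ATF6 and ATF4 target and the most abundant of the 4, measured 494, 513 and 383 CPM against 424, 421 and 462 CPM, with library 3 alone below the Lgr5-CreER range (log2 0.09 ± 0.13). The core ubiquitin ligase genes Sel1l and Syvn1 gave log2 0.07 ± 0.14 and 0.25 ± 0.13 and did not pass (edgeR adjusted p = 0.779 and 0.25).

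**Figure D3:**
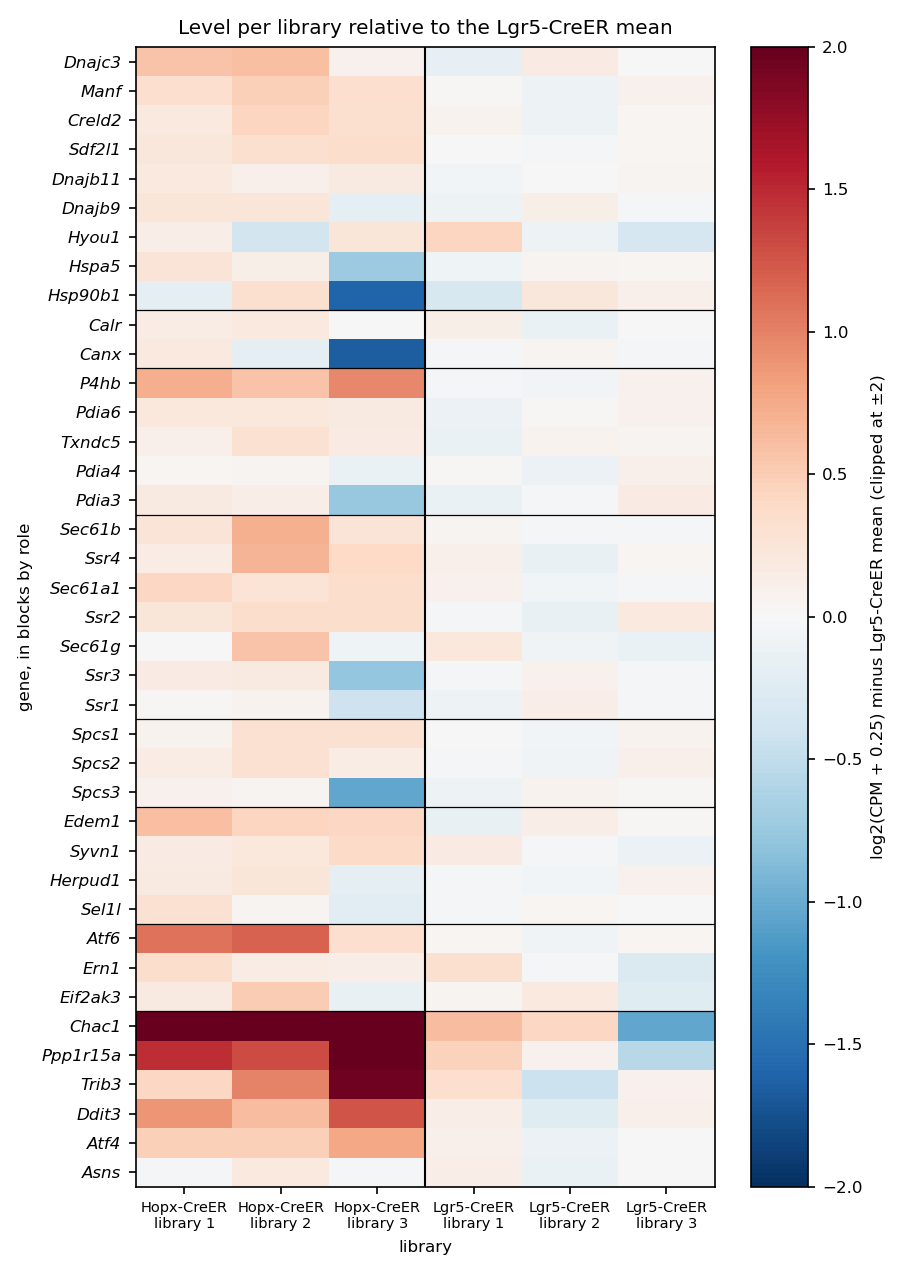
Level of each gene (rows, in blocks by role) in each library (columns), as log2(CPM + 0.25) minus the mean of the Lgr5-CreER libraries, with colours clipped at 2 either way. The stress factors are above the Lgr5-CreER mean in all Hopx-CreER libraries for 5 of the 6 genes, while in the other blocks Hopx-CreER library 3 drops below it for genes such as Hsp90b1, Canx, Pdia3, Ssr3 and Spcs3.

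Hopx-CreER library 3 thus parted from the other libraries of its group, and it did so gene by gene. Its log2 level minus the mean of libraries 1 and 2 was -1.67 for Hsp90b1, -1.65 for Canx and -1.12 for Spcs3, and 1.29 for Trib3 and 0.97 for Ppp1r15a. The transcripts of Hsp90b1, Canx and Spcs3 had 43.8%, 42.2% and 40.2% GC, and those of Trib3 and Ppp1r15a 58.2% and 55.7%. Chac1 went the other way, at -0.78 with 57.4% GC. Across the 39 genes, Spearman's rho between this deviation and transcript GC content was 0.774, and over 12426 tested genes it was 0.488. Both are descriptions of 1 library, and genes are not independent replicates. The library was the lowest of the 6 for 11 of the 39 genes, a share close to the 30.7% of all tested genes. The log2 fold change between groups also went with GC content over the 12426 genes (rho 0.258). Adding a GC-dependent offset per library left 8 of the 39 higher and 0 lower (8.48% and 8.78% of all tested genes), with Dnajc3 in place of Manf (edgeR adjusted p = 0.00887 and 0.0782). The log2 fold change fell for P4hb (0.76 to 0.58), Ppp1r15a (1.73 to 1.49), Atf4 (0.58 to 0.39), Ddit3 (0.94 to 0.72), Chac1 and Manf. It rose for Atf6 (0.92 to 0.98) and Edem1 (0.48 to 0.56). With the offset and without library 3, Ddit3 lost its call (edgeR adjusted p = 0.0663).

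**Figure D4:**
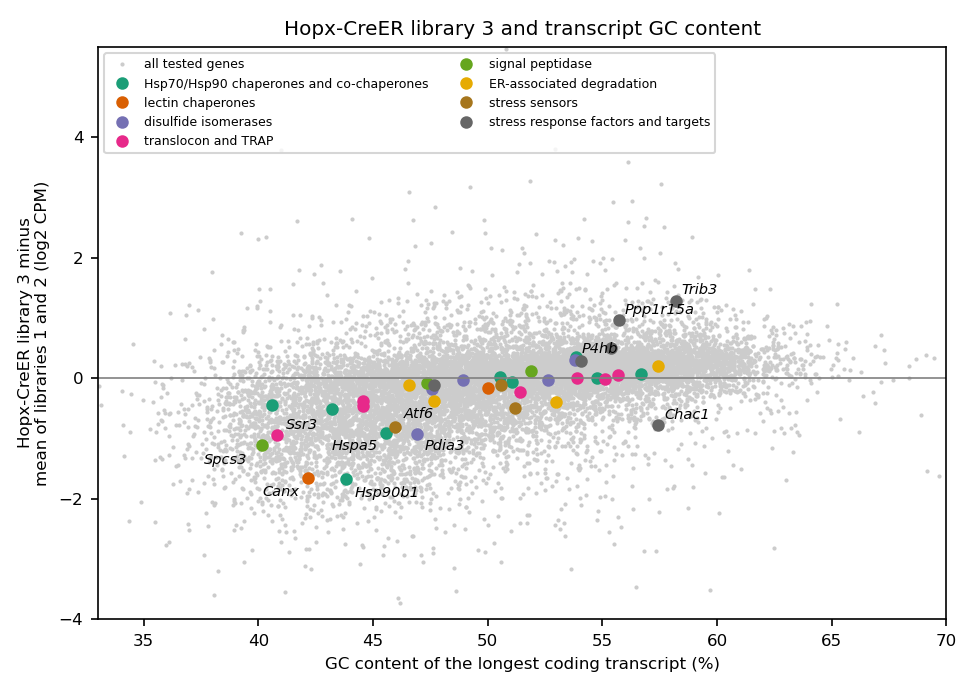
Log2 level in Hopx-CreER library 3 minus the mean of libraries 1 and 2 of that group (y axis) against the GC content of the longest coding transcript in percent (x axis), for the 39 genes by role and all tested genes in grey. The listed genes run from -1.67 for Hsp90b1 on the GC-poor side to 1.29 for Trib3 on the GC-rich side.

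Wider lists of the same pathways, 188 genes of which 178 were tested, held 24 genes that rose and 2 that fell in Hopx-CreER cells, 13.5% and 1.12% of those tested beside 9.45% and 3.3% of all tested genes, with a median log2 fold change of 0.13. Of the 20 further regulators of the response, 7 rose (35%). Xbp1, the factor activated by IRE1, had means of 619 ± 35.8 and 434 ± 43.4 CPM (log2 0.51 ± 0.11, edgeR adjusted p = 0.0172, up to 0.0857 in the alternatives). Ern2, the IRE1 form of mucus-making epithelium, had means of 73.1 ± 4.83 and 45.4 ± 11.6 CPM (log2 0.69 ± 0.19, edgeR adjusted p = 0.0468, up to 0.196 in the alternatives). Atf3, induced by ATF4 and also an immediate early gene, rose from 54.9 ± 28.1 to 315 ± 164 CPM (log2 2.52 ± 0.42, edgeR adjusted p = 0.0054). Creb3l3, an ATF6-like factor of gut and liver, had the smallest p of the list, with means of 112 ± 23.9 and 13.5 ± 4.95 CPM (log2 3.05 ± 0.27, edgeR adjusted p = 0.000443). Atf6b and Atf5 did not pass (log2 0.07 ± 0.14 and -0.79 ± 0.59).

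Targets of the integrated stress response, the branch that ATF4 serves, went both ways: of 33 tested, 3 rose (Cth, Gpt2 and Slc3a2) and 2 fell (Phgdh and Slc7a5). These are 9.09% and 6.06%, the first close to the 9.45% of all tested genes that were higher (3.3% were lower). Phgdh, the first enzyme of serine synthesis, had means of 159 ± 8.44 and 251 ± 13.1 CPM (log2 -0.66 ± 0.10, edgeR adjusted p = 0.00382), and Gpt2, an alanine transaminase, 23.3 ± 5.48 and 7.62 ± 0.355 CPM (log2 1.61 ± 0.24, edgeR adjusted p = 0.00333). Psat1, which follows Phgdh in the same pathway, did not pass (log2 0.14 ± 0.14), and Slc7a11 was too low to test. The list's median was 0.11.

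Of 35 further chaperones and folding enzymes 3 rose, or 8.57%, near the 9.45% of all tested genes. Of these, Agr2, the isomerase that goblet cells need to make mucin, had means of 991 ± 294 and 392 ± 123 CPM (log2 1.34 ± 0.27, edgeR adjusted p = 0.0114). Agr2 is also in the goblet marker list. Fkbp9, a prolyl isomerase, had the smallest p there (18.8 ± 0.967 and 3.58 ± 0.223 CPM, log2 2.39 ± 0.23, edgeR adjusted p = 0.000569). Ppib, Erp44 and Ero1lb did not pass (log2 0.17 ± 0.10, 0.29 ± 0.15 and 1.03 ± 0.38). By edgeR 0 of 24 further translocation genes passed (3 at an unadjusted p under 0.05, 0 by DESeq2 or limma-voom), with Sec63 at log2 -0.20 ± 0.41. Of the 12 genes of the oligosaccharyltransferase, which attaches sugars at the channel, 0 passed in edgeR (3 at an unadjusted p under 0.05, 0 by DESeq2 or limma-voom), and 11 had a log2 fold change above 0 (Rpn1 0.21 ± 0.10). Of all tested genes, 16.3% were higher and 11.1% lower at the unadjusted p. DESeq2 and limma-voom called 11.3% and 9.08% of them as higher.

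Of 28 further ERAD genes 5 rose (17.9%, beside 9.45% of all tested genes). Selenos had the smallest p of them and links the p97 ATPase to the ER membrane (146 ± 6.65 and 88.9 ± 4.46 CPM, log2 0.71 ± 0.11, edgeR adjusted p = 0.00331). Of the Derlin family, which forms part of the exit channel, Derl2 rose (98.1 ± 4.18 and 73.1 ± 6.66 CPM, log2 0.43 ± 0.12, edgeR adjusted p = 0.0457, up to 0.157 in the alternatives; named after its values were seen). Derl1 and Derl3 did not pass (log2 0.28 ± 0.12 and 0.05 ± 0.38). Of 26 genes of ER exit and retrieval 6 rose (23.1%, beside the same 9.45%). Sec24d, a COPII coat subunit that picks cargo, had means of 111 ± 7.44 and 46.8 ± 4.75 CPM (log2 1.24 ± 0.13, edgeR adjusted p = 0.000693). The receptors that return chaperones to the ER rose in 2 forms, Kdelr2 (195 ± 14.6 and 142 ± 16.8 CPM, log2 0.46 ± 0.12, edgeR adjusted p = 0.0383) and Kdelr3 (19.0 ± 1.79 and 5.47 ± 1.43 CPM, log2 1.79 ± 0.26, edgeR adjusted p = 0.00325).

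**Figure D5:**
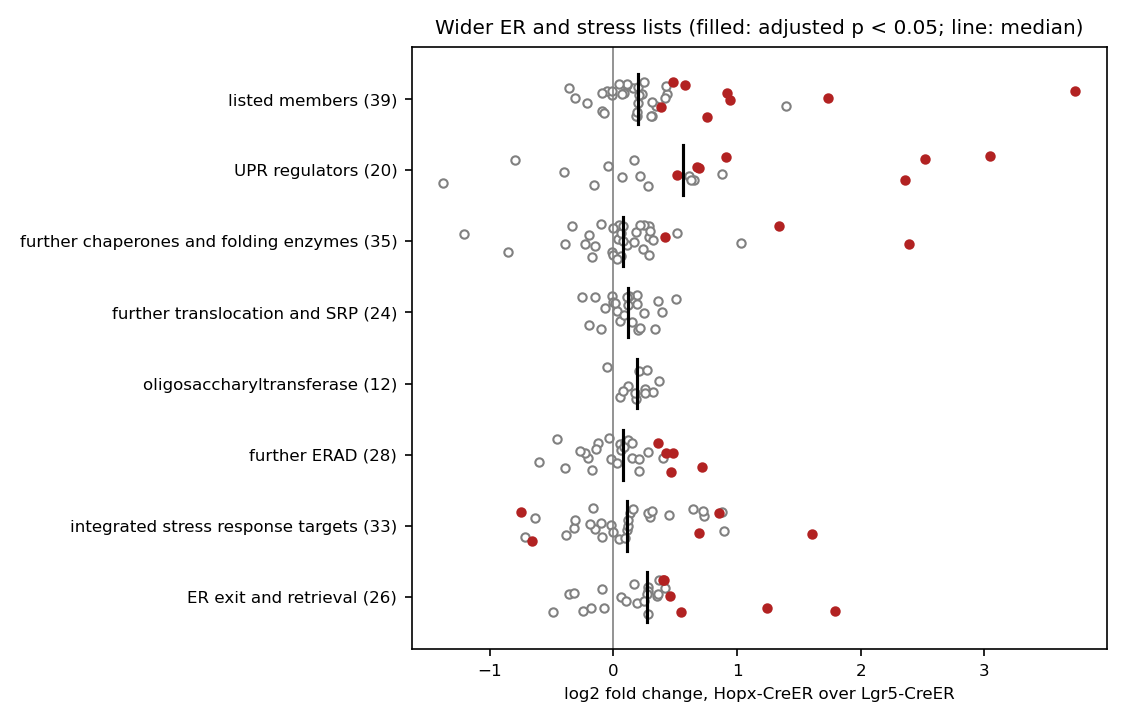
Log2 fold change (x axis) of every tested gene in the 39-gene list and in 7 wider ER and stress lists (y axis), with filled points past the edgeR threshold and a line at each median. The list of further regulators has the highest median of the 7, 0.56, and the translocation and oligosaccharyltransferase lists have no filled point.

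The labels were checked against markers of the sorted cells. All 7 Lgr5 stem cell markers were lower in Hopx-CreER libraries (summed 2661 to 4480 against 9394 to 9884 CPM), beside 3.3% of all tested genes. The 7 epithelial markers summed to 15529 to 17038 against 10329 to 11096 CPM. Of the 7, 3 were higher (9.45% of all tested genes) and 0 lower, with log2 fold changes above 0 for 4 and below 0 for 3. The tuft and enterocyte marker sums were 188 to 848 against 93.3 to 139 CPM and 1857 to 3512 against 888 to 1080 CPM. Plasma cells are also rich in ER. The 9 plasma and B cell markers summed to 246 to 313 CPM in Hopx-CreER and 318 to 361 CPM in Lgr5-CreER libraries, nearly all of it Sdc1, which epithelium also expresses and which did not pass (log2 -0.32, edgeR adjusted p = 0.133). Mzb1 and Tnfrsf17 were at 0 in every library, and Jchain had 1 count in all. Of the B cell genes, Ms4a1 was lower in Hopx-CreER cells, with 1, 0 and 0 counts against 12, 15 and 18 (edgeR adjusted p = 0.00588), and Cd79b did not pass, with 35, 47 and 58 counts against 35, 19 and 29 (log2 0.99, edgeR adjusted p = 0.129). The part of these cells in the results was not tested. Other immune markers summed to at most 10.7 CPM and stromal and endothelial markers to at most 7.69 CPM.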

How the data were processed

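The deposited table holds raw counts per gene, whole numbers with Ensembl mouse IDs. Per the submitters' processing notes, kallisto and edgeR were used and the build GRCh38, which is human, is named; versions, roles and strand settings are not given in the sources used here. Per the labels' protocols, RNA was amplified with SMART-Seq v4 and libraries made with Nextera XT, which do not mark strand. Symbols and GRCm38 positions came from GENCODE M21 (23479 IDs matched, 86 not). In edgeR 4.0.16 (R 4.3.3), genes passing filterByExpr (12439) were fitted with TMM factors and a quasi-likelihood F test on all 6 libraries, with no block, Benjamini-Hochberg adjustment and a threshold of 0.05. CPM are TMM-scaled. One count is worth 0.067 to 0.093 CPM. Standard errors were derived from F. The biological coefficient of variation was 22.5%. DESeq2 1.42.0, limma 3.58.1, other scalings, filters, a GC offset and left-out libraries were the alternatives. Every listed gene is named; library values are given for genes past the threshold and the most abundant of each role, and others were added after their values were seen. Further pathway genes were those named in a fixed list plus, per list, the gene with the smallest p in each direction. The members and lists were chosen with earlier results of these data known. Exons of 15 of the 39 genes overlap another gene, 14 of them on the opposite strand. Srp54a and Fgf21 were not analysed here.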

Additional observations from a re-analysis of the deposited data

How the results depend on the processing

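Against 8 listed genes higher, library totals alone gave 5 and summing the 2 Lgr5-CreER columns with a common number gave 3; leaving out 1 library gave 3 to 10, and no alternative gave a lower one. Of the 178 other pathway genes, 24 were higher and 2 lower. Summed columns gave 13 higher, library totals alone 14 higher and 6 lower, DESeq2 4 lower, upper quartile factors 4 lower, the GC offset 5 lower, and the GC offset without Hopx-CreER library 3 (added after the data were seen) 6 lower; leaving out 1 library gave 9 to 27 higher. Over all tested genes, 1176 were higher and 410 lower. Summed columns gave 659 and 131, DESeq2 694 lower, library totals alone 729 lower, the GC offset 1092 lower, and the same without Hopx-CreER library 3 1195 lower; leaving out 1 library gave 606 to 1275 higher and 117 to 593 lower. The higher share of all calls was 74.1%, but 56.3% with library totals alone and 49.1% with the GC offset, where the median log2 fold change of all genes was -0.15 and -0.10 (-0.03 with TMM) and that of the 39 genes 0.08 and 0.10. For genes that did not pass, the sign changed 34 times in 16 genes, never past the threshold, and 7 times such a gene came to pass. The cause was not tested. No paired analysis was possible because the count columns carry no replicate numbers that pair the groups. Depth limits Chac1 and Trib3, at 71 counts or fewer per library.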
